A study of Mus musculus with 17 samples.

Results

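Osteocalcin is a hormone released by bone, and the 9 genes described here encode its candidate receptors and proteins that work with them: the receptors Gprc6a, Gpr158, Gpr37 and Gpr37l1, the receptor-bound regulators Rgs7 and Gnb5, the G protein subunit Gnaq, the calcium channel Itpr1 and the histone-binding protein Rbbp4. The members are a list of gene symbols, and all 9 were found among the 55359 genes of the deposited table. RNA was sequenced from testes and forebrain of male mice at postnatal day 1. Testes came from 2 WT, 3 Ocn+/- and 3 Ocn-/- libraries, and forebrain from 3 libraries of each genotype. Ocn here is the osteocalcin deletion of the Ocn_GK strain on a 129/SvEv background, which is present in every cell from conception. WT pups had WT mothers, and Ocn+/- and Ocn-/- pups had Ocn-/- mothers, so in any comparison with WT the genotypes of pup and mother cannot be told apart, whereas Ocn-/- and Ocn+/- pups share the maternal genotype. The labels call the brain tissue hippocampus and the study's methods call it forebrain, the name used below. The study counts its testes as mice, in the same numbers as the libraries. For its forebrain heatmap it gives 2 WT mice, whereas 3 WT forebrain libraries are used here. The labels do not say whether testes and forebrain came from the same animals, and p-values measure the spread between libraries.

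Gprc6a is a class C G protein-coupled receptor that is known as the osteocalcin receptor of Leydig cells and pancreatic beta cells. Gpr158 is a class C-like orphan receptor of neurons that holds a complex of Rgs7 with Gnb5 at the membrane, and its signalling to osteocalcin has been linked to Gnaq, to inositol trisphosphate, which opens the Itpr1 channel, and to the chromatin protein Rbbp4 (RbAp48) in hippocampal memory. Gpr37, found in oligodendrocytes and other cells, and its relative Gpr37l1, found mainly in astrocytes, signal through inhibitory G proteins and have been studied as receptors for prosaposin, the product of Psap.

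The levels of the receptors differ by organ, so the sequence just before the RefSeq start of each receptor gene is shown for reference. The gene positions given further below are in GRCm39 and from another annotation, and the starts were not compared between them. The sequences are the 250 bases before the RefSeq start in GRCm38.p6, read 5′ to 3′ on the strand of the gene, and capitals mark each CG dinucleotide. They lie at chr10:51631459-51631708 on the minus strand for Gprc6a, chr2:21367317-21367566 on the plus strand for Gpr158, chr6:25689981-25690230 on the minus strand for Gpr37 and chr1:135167682-135167931 on the minus strand for Gpr37l1.
Gprc6a: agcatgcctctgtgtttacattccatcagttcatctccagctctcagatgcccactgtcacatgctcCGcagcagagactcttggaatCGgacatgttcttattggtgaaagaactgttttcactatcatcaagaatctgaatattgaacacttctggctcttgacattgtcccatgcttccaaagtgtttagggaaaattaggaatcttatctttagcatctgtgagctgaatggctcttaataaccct
Gpr158: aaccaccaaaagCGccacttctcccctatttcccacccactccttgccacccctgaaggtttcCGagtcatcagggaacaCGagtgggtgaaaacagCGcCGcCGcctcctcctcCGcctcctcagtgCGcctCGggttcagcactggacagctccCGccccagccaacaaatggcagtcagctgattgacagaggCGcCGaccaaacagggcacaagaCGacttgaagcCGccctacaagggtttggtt
Gpr37: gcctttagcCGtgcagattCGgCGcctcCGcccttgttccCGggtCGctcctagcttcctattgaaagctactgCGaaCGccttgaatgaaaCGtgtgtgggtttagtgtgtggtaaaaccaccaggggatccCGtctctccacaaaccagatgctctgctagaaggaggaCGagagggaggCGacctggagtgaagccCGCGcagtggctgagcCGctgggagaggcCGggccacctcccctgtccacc
Gpr37l1: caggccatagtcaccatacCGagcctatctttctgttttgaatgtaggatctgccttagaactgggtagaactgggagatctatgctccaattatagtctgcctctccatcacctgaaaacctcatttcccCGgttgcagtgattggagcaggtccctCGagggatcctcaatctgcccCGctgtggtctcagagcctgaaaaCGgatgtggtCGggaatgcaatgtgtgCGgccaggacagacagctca
The Gprc6a sequence holds 2 CG dinucleotides, and 81.2% of the 32841 RefSeq promoters in the table hold as many or more in their 250 upstream bases. The Gpr37l1 sequence holds 7 CG dinucleotides, the Gpr158 sequence 14 and the Gpr37 sequence 16, against a median of 6 over all promoters. The motif GGGCGG, which itself contains a CG, occurs on either strand in the Gpr158 and Gpr37 sequences and in 32.8% of all promoters. The RefSeq table held 8 of the 9 members. Itpr1 was the other.

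The libraries held between 7302401 and 8289015 expected counts in testes and between 6518151 and 14621584 in forebrain, and forebrain WT 3 was the shallowest of all. Most lists of tissue markers followed the labels. The summed level of 8 neuronal genes was 8412 to 9556 CPM (counts scaled to library size) in forebrain and 136 to 179 in testes. All 8 Sertoli cell markers were detected in every testis library. All 8 hippocampal markers were detected in every forebrain library, but 5 to 6 of them also in the testis libraries. Their sum was 460 to 606 CPM in forebrain and 180 to 298 in testes, so their detection alone does not tell the organs apart. The sum of 8 oligodendrocyte lineage genes was higher in testes, at 858 to 1223 CPM against 243 to 312 in forebrain, with 3 genes called higher and 5 lower in testes. Most of it was Pdgfra, at a median of 838 CPM in testes, where Olig1 and Olig2 had 0 to 3 counts. The genes of the hormone itself could not serve as a check of genotype. Bglap had no count in 7 of 8 testis libraries and 0 to 5 counts in forebrain, and Bglap2 had no count in any library, which allows up to 3 counts per library. The related gene Bglap3 had 2 to 17 counts in testes and 0 to 3 in forebrain. These are bulk tissues, in which fewer cells of a type and less RNA per cell cannot be told apart.

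**Figure D1:**
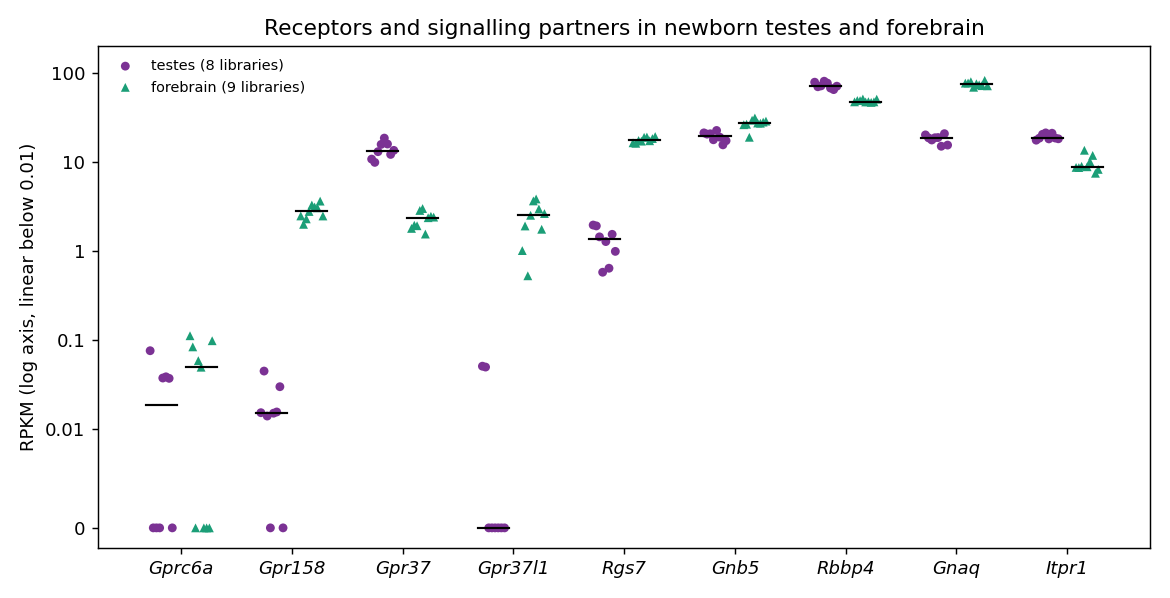
Level of each gene per library, in RPKM (counts scaled to library size and transcript length) on a log axis that is linear below 0.01, with a black line at the median of each organ. Gpr37 stood at 9.85 to 18.4 RPKM in testes and 1.54 to 2.99 in forebrain, whereas Gpr158 stood at 0 to 0.0446 in testes and 1.98 to 3.62 in forebrain.

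Which receptor genes were expressed in each organ was addressed first. Levels are compared between genes only in RPKM, that is, CPM divided by the length of the canonical transcript. In testes, Gpr37 supplied a median of 99.7% of the summed RPKM of the 4 receptors, with a range of 98.7% to 100% over 8 libraries. In forebrain the signal was divided among Gpr158, Gpr37 and Gpr37l1, with little from Gprc6a. The median share over 9 forebrain libraries of all genotypes was 36.4% for Gpr158 (32.5% to 48.4%), 32.2% for Gpr37l1 (11.1% to 45.1%), 31.6% for Gpr37 (18.2% to 40.5%) and 0.496% for Gprc6a (0% to 2.07%). These ranges pool genotypes. In WT, Gpr158 held 45.9%, 33.6% and 48.4%, Gpr37 held 33.3%, 32.8% and 40.5%, and Gpr37l1 held 18.8%, 32.2% and 11.1%. By canonical length, Gpr158 was thus highest and Gpr37l1 lowest of the 3 in every WT library. The shares were close in WT 2, where the order depends on the transcript length chosen. In Ocn-/-, Gpr37l1 held 30.7%, 36.6% and 45.1% against 33.8%, 32.9% and 36.7% for Gpr158, and was above it in 2 of 3 libraries. In Ocn+/-, Gpr158 held 36.4%, 46.3% and 32.5% and Gpr37l1 35.3%, 22.4% and 34.6%. These shares are given as a description and were not tested between genotypes.

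**Figure D2:**
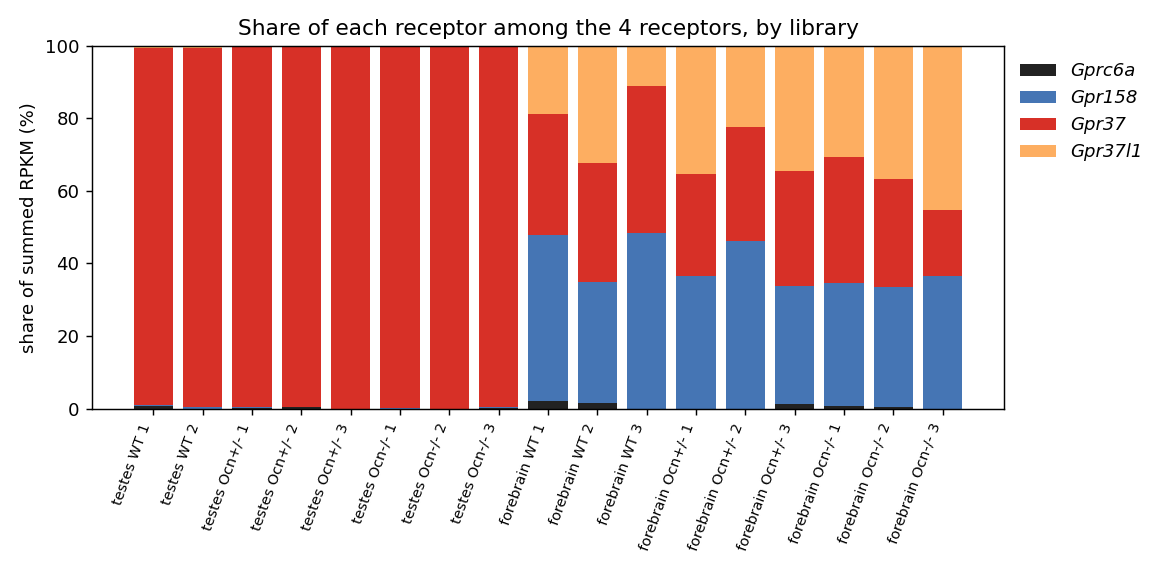
Share of each receptor in the summed RPKM of the 4 receptors, 1 bar per library. Testis bars are almost wholly Gpr37, and forebrain bars are divided among Gpr158, Gpr37 and Gpr37l1, with Gprc6a at no more than 2.07%.

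Gprc6a (chromosome 10, 51490734 to 51507557, minus strand, GRCm39) was at the limit of detection in both organs. Its counts in testes were 2 and 0 in WT, 1, 1 and 0 in Ocn+/- and 0, 0 and 1 in Ocn-/-. In forebrain they were 4, 2 and 0 in WT, 0, 0 and 4 in Ocn+/- and 2, 2 and 0 in Ocn-/-. Every group therefore included a library without a count, and the groups overlapped. The totals were 5 counts in testes and 14 in forebrain. Scaled to library size, the forebrain total was 1.99 times that of testes, with an exact 95% interval of 0.676 to 7.05 that covers counting error only. Gprc6a did not pass the filter on low counts and was not tested in any comparison, so a difference between genotypes or organs was not detectable at this depth. Leydig cells, in which the receptor has been described, were represented: 7 of 8 Leydig markers were detected in every testis library, and the steroidogenic genes Cyp11a1 and Hsd3b1 had at least 1079 and 2113 counts. Hsd3b6 was the marker at 0 to 1 count.

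Gpr158 (chromosome 2, 21372344 to 21835728, plus strand) was detected almost solely in forebrain. Testes held 9 counts of Gpr158 in 8 libraries and forebrain held 2139 in 9. The scaled ratio of forebrain to testes was 169, with an exact interval of 88.6 to 369 for counting error. Gpr37l1 (chromosome 1, 135087972 to 135095419, minus strand) gave the same picture, with 1 count in each WT testis library, none in the 6 mutant testis libraries and 559 in forebrain. Its scaled ratio was 198 (54.6 to 1641). In the fit over both organs the log2 difference, testes minus forebrain, was -7.23 ± 0.23 (SE) for Gpr158 and -7.48 ± 0.49 for Gpr37l1. These fitted values depend on the few testis counts.

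Gpr37 (chromosome 6, 25665877 to 25690728, minus strand) ran the other way. Its level was 9.85 to 18.4 RPKM in the testis libraries, with a median of 13.2, and 1.54 to 2.99 in the forebrain libraries, with a median of 2.36. The organs did not overlap. The log2 difference was 2.55 ± 0.11 (SE), or 5.86-fold higher in testes, with an adjusted p of 9.8e-17 in edgeR's quasi-likelihood test.

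The partners were expressed in both organs, at levels that differed between them. Rgs7, the GTPase-activating protein of the Gpr158 complex, had a median of 1.35 RPKM in testes (0.575 to 1.95) and 17.4 in forebrain (16.1 to 19.2), a log2 difference of -3.75 ± 0.13 (SE). Its obligate partner Gnb5 had a median of 19.7 RPKM in testes (15.5 to 22.5) and 27.3 in forebrain (18.8 to 31.0), a smaller log2 difference of -0.48 ± 0.08. Rgs7 was thus 13.5-fold lower in testes and Gnb5 1.39-fold lower. Gnaq, the alpha subunit that activates phospholipase C, had a median of 18.6 RPKM in testes and 75.2 in forebrain, a log2 difference of -2.04 ± 0.07. Itpr1, the calcium channel opened by inositol trisphosphate, had a median of 18.5 RPKM in testes and 8.79 in forebrain, a log2 difference of 1.00 ± 0.09. Rbbp4, a histone-binding subunit of several chromatin complexes, had a median of 70.9 RPKM in testes and 47.4 in forebrain, a log2 difference of 0.59 ± 0.05.

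The order of the RPKM levels in testes was Rbbp4, then Gnb5, Gnaq and Itpr1, whose ranges overlapped, then Gpr37, which overlapped with them at its upper end, then Rgs7, with Gprc6a, Gpr158 and Gpr37l1 at or near 0. In forebrain the order was Gnaq, Rbbp4, Gnb5, Rgs7, Itpr1, then Gpr158, Gpr37l1 and Gpr37, whose ranges over all genotypes overlapped, and Gprc6a. The ranges of Gnb5 and Rgs7 overlapped, and those of Gnaq and Rbbp4 did not. The choice of transcript length bears on these orders. With the union of all exons in place of the canonical transcript, the testis median of Rbbp4 was 24.7 RPKM and that of Itpr1 9.95, below the 10.8 of Gpr37. In forebrain that of Gpr158 was then 2.44 RPKM, below the 2.51 of Gpr37l1.

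Gpr158 and Gpr37l1 passed the filter on low counts only through forebrain, where they were high, so their being lower in testes is a description and is not counted. The 6 members that passed the filter in each organ alone all passed the threshold between organs (adjusted p under 0.05), 3 higher and 3 lower in testes. Over all 17800 genes tested, 84.4% passed (44.5% higher and 39.9% lower), so a count of 6 of 6 is close to that background. The difference of Gnb5 alone lost its call under another scaling, at -0.16 with an adjusted p of 0.087 when only library size was used.

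The other genes of each arm also differed between organs, as did most genes. Genes that passed the filter in 1 organ alone are again left out of these counts: Gpr158 and Gpr179 of the R7 RGS complex list, Gna14 of the Gq list and Gpr37l1 of the Gpr37 partners. Of the 7 remaining genes of the R7 RGS complex list, 1 was higher and 5 lower in testes. Rgs6 had a log2 difference, testes minus forebrain, of -5.80 ± 0.11 (SE) and Rgs11, another R7 family member that pairs with Gnb5, was higher by 1.84 ± 0.12. In RPKM, Rgs11 was the most abundant R7 member in testes, at a median of 16.3 against 1.35 for Rgs7. Among 12 genes of Gq and phospholipase C signalling, 6 were higher and 5 lower in testes. By the median over all libraries, the most abundant alpha subunit of the list was Gnaq in forebrain, and in testes Gna11, at 20.4 RPKM (16.6 to 24.3), whose range overlapped with that of Gnaq (14.9 to 20.7). Gnaq was above Gna11 in both WT testes and in Ocn+/- 2. Plcb1, a phospholipase C beta of neurons, had a log2 difference of -3.47 ± 0.08, and Plcb3 was higher by 1.54 ± 0.06, as was Itpr3 by 3.19 ± 0.12. Among the Gpr37 partners, Psap stood at a median of 222 RPKM in testes and 281 in forebrain, and Gnao1, an inhibitory-type alpha subunit abundant in neurons, was lower in testes, with a log2 difference of -6.28 ± 0.08. Of the 15 genes of the Rbbp4 complex list, 12 were higher and 2 lower in testes, and the most abundant was Rbbp7 in testes, at 223 RPKM, and the histone deacetylase Hdac2 in forebrain, at 116. Of the 18 genes of the Gs and cyclic AMP arm, which Gprc6a can engage, 4 were higher and 13 lower in testes, and Gnas, the stimulatory alpha subunit and the list's most abundant gene, was at 317 RPKM in testes and 368 in forebrain.

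Whether the members responded to loss of osteocalcin was then asked within each organ. These levels are CPM scaled within the organ and are compared only between genotypes of 1 gene. In testes 6 of 9 members passed the filter on low counts.

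**Figure D3:**
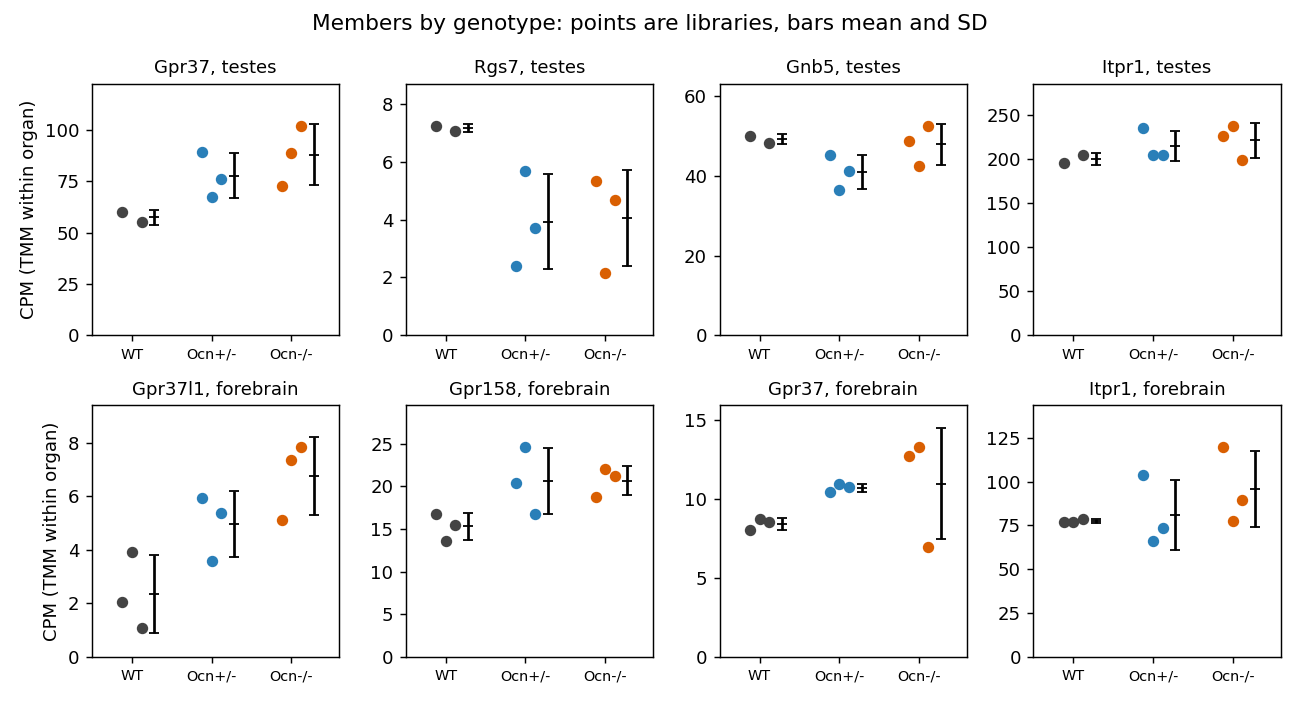
CPM of 4 members in testes (top) and 4 in forebrain (bottom) by genotype, each point a library and each bar the mean with its SD. Gpr37 in testes was at 55.0 and 60.1 in WT and 72.7 to 102 in Ocn-/-, and Gpr37l1 in forebrain was at 1.07 to 3.92 in WT and 5.11 to 7.83 in Ocn-/-.

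Gpr37, which supplied nearly all of the receptor RPKM in testes, was the only member called there, and only in Ocn-/-. Its level was 60.1 and 55.0 CPM in the WT testes, 89.4, 67.5 and 76.2 in Ocn+/- and 72.7, 89.0 and 102 in Ocn-/-. Every mutant library lay above both WT libraries. The log2 difference of Ocn-/- from WT was 0.61 ± 0.16 (SE, n = 3 and 2), or 1.53-fold, with an adjusted p of 0.033 in edgeR. That of Ocn+/- from WT was 0.43 ± 0.16, with an adjusted p of 0.095. Gpr37 was thus 1 of 6 tested members called in Ocn-/- testes, where 2.54% of all 16361 genes were called higher, 3.09% lower and 5.64% in either direction. None of the 6 was called in Ocn+/- testes, where 8.25% of genes were called (3.89% higher and 4.36% lower), and 2 had an unadjusted p under 0.05, as did 25.9% of all genes. These shares moved widely with single libraries. In Ocn+/- testes the share called was 0.691% without WT 2, 0.766% without WT 1, 2.16% without Ocn+/- 1, 2.82% without Ocn+/- 3 and 12.5% without Ocn+/- 2. In Ocn-/- testes it was 0.498% without WT 2, 1.35% without WT 1, 2.51% without Ocn-/- 1, 3.62% without Ocn-/- 3 and 9.57% without Ocn-/- 2. The call of Gpr37 in Ocn-/- testes rested on single libraries. It was lost without WT 1 (adjusted p = 0.12), WT 2 (0.33), Ocn-/- 3 (0.090) or Ocn+/- 3 (0.051), with log2 differences of 0.49 to 0.69. That of Ocn+/- was gained without Ocn+/- 2 (0.54, adjusted p = 0.043) or without the filter on low counts (adjusted p = 0.043). Over the same libraries the summed level of the Leydig markers was 1873 and 1985 CPM in WT, 910 to 1472 in Ocn+/- and 928 to 1368 in Ocn-/-. That of the Sertoli markers was 1749 and 1907 CPM in WT, 1811 to 2084 in Ocn+/- and 1645 to 2569 in Ocn-/-. The part of these cells in the level of Gpr37 was not tested.

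Rgs7 was the tested member with the lowest RPKM in testes. Its level in CPM was 7.26 and 7.07 CPM in WT, 2.39, 5.68 and 3.71 in Ocn+/- and 5.33, 2.17 and 4.68 in Ocn-/-. All mutant libraries lay below both WT libraries, but the mutants spread widely. The log2 difference was -0.86 ± 0.40 (SE) in Ocn+/-, with an adjusted p of 0.19, and -0.81 ± 0.40 in Ocn-/-, with an adjusted p of 0.24, and neither passed the threshold.

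The other members in testes differed from WT by less than 0.3 on the log2 scale, and none was called. Gnb5 was at 50.1 and 48.3 CPM in WT and 36.6 to 45.2 in Ocn+/-, a log2 difference of -0.26 ± 0.15 (SE), and at 42.4 to 52.7 in Ocn-/-. Itpr1 was at 195 and 204 CPM in WT and 199 to 238 in Ocn-/-, with a 95% interval of -0.10 to 0.39 for the log2 difference. Gnaq and Rbbp4 had intervals of -0.34 to 0.19 and -0.19 to 0.27 in the same comparison. Of the 6 tested members, 1 was above WT without overlap in Ocn-/- and 1 below, where 19.9% and 22.1% of all genes did so. In Ocn+/- testes 1 was above and 2 below, where the shares were 23.4% and 23.3%.

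In forebrain the only member called was Gpr37l1, and only in Ocn-/-. Its level was 2.06, 3.92 and 1.07 CPM in WT, 5.95, 3.56 and 5.38 in Ocn+/- and 5.11, 7.37 and 7.83 in Ocn-/-. The Ocn-/- libraries lay above all WT libraries, and the Ocn+/- libraries overlapped with WT 2. The log2 difference of Ocn-/- from WT was 1.48 ± 0.33 (SE, n = 3 and 3), or 2.79-fold, with an adjusted p of 0.017 in edgeR. For Ocn+/- it was 1.04 ± 0.34, with an adjusted p of 0.089. The WT libraries were also those with the fewest reads of this gene, at 27, 34 and 6 counts, and WT 3, at 6, is the shallowest library. Gpr37l1 was 1 of 8 tested members called in Ocn-/- forebrain, where 1.8% of all 16076 genes were called higher, 3.05% lower and 4.85% in either direction. None was called in Ocn+/- forebrain, where 3.89% of genes were called (1.21% higher and 2.68% lower), and 2 members had an unadjusted p under 0.05, as did 20.3% of all genes. The share of all genes called fell to between 1.15% (without WT 3) and 2.91% (without Ocn-/- 1) in Ocn-/- when WT 2, WT 3, Ocn-/- 1 or Ocn-/- 2 was left out, and to between 1.11% (without WT 3) and 2.28% (without WT 2) in Ocn+/- without WT 2, WT 3 or any Ocn+/- library. The Ocn-/- call was lost without WT 1 (adjusted p = 0.065), WT 3 (0.077) or Ocn-/- 2 (0.064), and the log2 difference without WT 3 was 1.23. An Ocn+/- call was gained without WT 2 (1.55, adjusted p = 0.026) or without the filter (adjusted p = 0.0092).

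Since Gpr37l1 is an astrocyte gene, the markers of that lineage are given beside it. All 8 radial glia and astrocyte markers were detected in every forebrain library. Their summed level was 1065 to 1181 CPM in WT, 1265 to 1326 in Ocn+/- and 1133 to 1485 in Ocn-/-, and 1 of the 8 was called higher in each mutant. That of 8 oligodendrocyte lineage markers was 243 to 270 CPM in WT, 294 to 312 in Ocn+/- and 252 to 299 in Ocn-/-, and 1 of them was called higher in each mutant. That of the olfactory bulb markers was 45.5 to 60.0 CPM in WT, 123 to 154 in Ocn+/- and 43.0 to 108 in Ocn-/-, and that of the telencephalon markers was 1434 to 1874, 1235 to 1369 and 1045 to 1420, with 1 called lower in Ocn-/-. Their part in the level of Gpr37l1 was not tested.

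Gpr158, the neuronal receptor, was higher in the mutant forebrain libraries without passing the threshold. Its level was 16.8, 13.6 and 15.5 CPM in WT, 20.4, 24.6 and 16.8 in Ocn+/- and 18.8, 22.0 and 21.2 in Ocn-/-. All mutant libraries lay above all WT libraries, Ocn+/- 3 only just. The summed level of the 8 neuronal markers was lower in the mutants, at 9087 to 9556 CPM in WT, 8412 to 9039 in Ocn+/- and 8669 to 8842 in Ocn-/-, with 1 marker called lower in each mutant, while the median log2 difference of the 8 was 0.06 in Ocn+/- and -0.02 in Ocn-/-. Their part in the level of Gpr158 was not tested. The log2 difference was 0.43 ± 0.15 (SE) in Ocn-/-, with an adjusted p of 0.10, and 0.42 ± 0.15 in Ocn+/-, with an adjusted p of 0.12. Gpr37 in forebrain was at 8.01, 8.75 and 8.54 CPM in WT, 10.4, 10.9 and 10.8 in Ocn+/- and 12.7, 13.3 and 6.93 in Ocn-/-. The Ocn+/- libraries lay above WT, and Ocn-/- 3 lay below it. Neither comparison was called, but without Ocn-/- 3 the log2 difference of Ocn-/- was 0.63 with an adjusted p of 0.041.

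The Gpr158 partners showed small differences in forebrain. Rgs7 was at 48.4 to 51.4 CPM in WT and 50.6 to 56.5 in Ocn-/-, with a 95% interval of -0.05 to 0.32 for the log2 difference. Gnb5 was at 49.5, 50.5 and 35.6 CPM in WT, of which the last is the shallow WT 3, and 51.8 to 58.3 in Ocn-/-, a log2 difference of 0.27 ± 0.11 (SE) with an adjusted p of 0.17. Gnaq was at 473 to 489 CPM in WT and 424 to 461 in Ocn-/-, so the groups did not overlap, yet the log2 difference was only -0.11 ± 0.08. Itpr1 was at 76.9 to 78.8 CPM in WT and 77.6, 89.5 and 120 in Ocn-/-, a log2 difference of 0.30 ± 0.19 with an adjusted p of 0.39, and of 0.047 without the filter on low counts. Rbbp4 differed least, at 187 to 195 CPM in WT and 185 to 201 in Ocn-/-, with a 95% interval of -0.15 to 0.14. Of the 8 tested members, 3 were above WT without overlap in each mutant, where 12.9% of all genes did so, and 1 was below in Ocn-/- and 0 in Ocn+/-, where 13.9% did so.

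**Figure D4:**
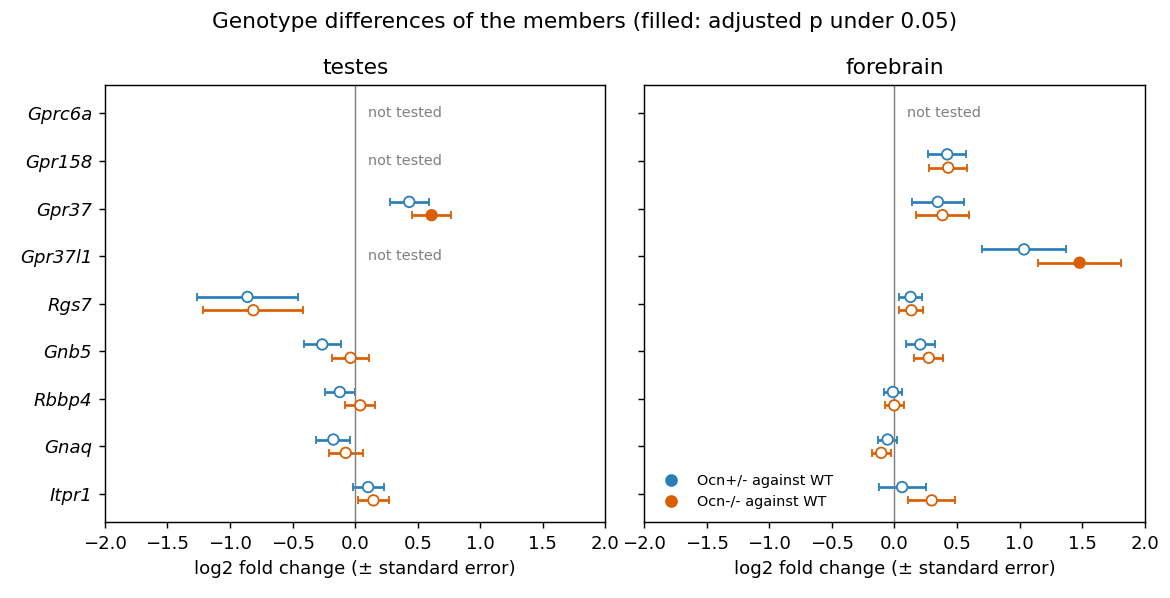
Log2 fold change of each member against WT in testes (left) and forebrain (right), with its standard error, filled where the adjusted p was under 0.05. The filled points are Gpr37 in Ocn-/- testes (0.61) and Gpr37l1 in Ocn-/- forebrain (1.48).

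Ocn-/- and Ocn+/- pups, which share the maternal genotype, were compared next. None of the 6 tested members in testes and none of the 8 in forebrain was called, none had an unadjusted p under 0.05, and no member separated the groups without overlap. Over all genes 0% were called in testes and 0.00622% in forebrain by edgeR, although 1881 genes in testes and 515 in forebrain had an unadjusted p under 0.05. The testis count of 0 genes became 47 without Ocn+/- 2, 4 without Ocn+/- 1, 1 without Ocn-/- 1, 252 without the filter on low counts and 70 in DESeq2, and the forebrain count of 1 became 34 without the filter and 5 in DESeq2. Separation of the CPM values without overlap occurred in 7.52% (higher) and 8.02% (lower) of genes in testes and 3.65% and 4.12% in forebrain. The log2 difference of Ocn-/- from Ocn+/- was 0.18 for Gpr37 in testes, with a 95% interval of -0.09 to 0.45, and 0.44 for Gpr37l1 in forebrain, with an interval of -0.12 to 1.01. A p that misses the threshold does not show that the mutants were equal.

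Whether the mutant effect differed between organs was tested with an interaction term. None of the 6 members that passed the filter in each organ was called, against 2.96% of all 17800 genes (1.24% higher and 1.71% lower), and 2 had an unadjusted p under 0.05, as did 18.7% of all genes. The nearest was Rgs7, for which the mutant change in testes minus that in forebrain was -0.97 ± 0.28 (SE) on the log2 scale, with an adjusted p of 0.057 in edgeR and 0.0058 in DESeq2. It passed in edgeR without the filter (0.0033) and without testes Ocn-/- 1 (0.035), Ocn-/- 2 (0.040) or Ocn+/- 2 (0.015). For Gpr37 the interaction was 0.14 with a 95% interval of -0.34 to 0.62, so its change in testes and forebrain was not shown to differ. The values for Gpr158 and Gpr37l1 rest on testis libraries with 0 to 3 counts and are not interpreted.

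The rest of the signalling lists was examined for genes that moved with genotype. The counts below stand against all genes, of which 3.89% were called higher and 4.36% lower in Ocn+/- testes, 2.54% and 3.09% in Ocn-/- testes, 1.21% and 2.68% in Ocn+/- forebrain and 1.8% and 3.05% in Ocn-/- forebrain. In the R7 RGS complex list, 1 of 8 tested genes was called in Ocn-/- forebrain: Rgs7bp, the membrane anchor of the Rgs7 and Gnb5 complex, was at 32.9 to 34.5 CPM in WT and 52.3, 54.7 and 41.2 in Ocn-/-. Its log2 difference was 0.55 ± 0.12 (SE), with an adjusted p of 0.012, and 0.063 without Ocn-/- 2. The median of the list was 0.11 in that comparison, against 0.01 over all genes. No gene of this list was called in testes, where its median was -0.31 in Ocn-/- and -0.30 in Ocn+/-, against -0.01 and 0.01 over all genes.

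In the Gq and phospholipase C list, 1 gene rose and 1 fell among 13 tested in Ocn-/- testes. Gna14, a Gq family alpha subunit, was at 9.1 and 5.8 CPM in WT and 13.6 to 19.0 in Ocn-/-, a log2 difference of 1.08 ± 0.26 (SE) with an adjusted p of 0.023. Itpr2, a second inositol trisphosphate receptor, was at 26.6 and 32.0 CPM in WT and 12.9 to 20.2 in Ocn-/-, a log2 difference of -0.75 ± 0.21 with an adjusted p of 0.049. In Ocn-/- forebrain Plcb1 was the gene called of 12, at 103.9 to 116.5 CPM in WT and 139.1 to 148.8 in Ocn-/-, a log2 difference of 0.36 ± 0.08 with an adjusted p of 0.015. None of this list was called in Ocn+/- pups of either organ. The call of Gna14 was lost without WT 2 (adjusted p = 0.36) or Ocn-/- 3 (0.064), and that of Plcb1 without WT 3 (0.070) or Ocn-/- 2 (0.065). That of Itpr2 was lost without WT 1 (0.12), WT 2 (0.45), Ocn-/- 1 (0.073), Ocn-/- 3 (0.13) or Ocn+/- 3 (0.072), and also with library size alone (0.070).

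In the Gs and cyclic AMP list, Prkar2b, a regulatory subunit of protein kinase A, fell in the testes of both mutants. It was at 399.3 and 361.2 CPM in WT, 192.6, 146.4 and 206.0 in Ocn+/- and 225.2, 283.9 and 238.0 in Ocn-/-. The log2 difference was -1.07 ± 0.15 (SE) in Ocn+/-, with an adjusted p of 0.00071, and -0.61 ± 0.15 in Ocn-/-, with an adjusted p of 0.024. Adcy2, an adenylyl cyclase, fell as well, with log2 differences of -0.56 ± 0.14 in Ocn+/- and -0.67 ± 0.14 in Ocn-/-, and Adcy7 rose by 0.55 ± 0.14 in Ocn-/-. In all, 2 of 18 genes were lower in Ocn+/- testes, where 4.36% of all genes were, and 1 was higher and 2 lower in Ocn-/- testes, where 2.54% and 3.09% were. None of 18 was called in forebrain of either mutant. The Ocn+/- call of Prkar2b held without each library in turn. Its Ocn-/- call was lost without WT 1 (adjusted p = 0.18), WT 2 (0.17), Ocn-/- 1 (0.10) or Ocn-/- 3 (0.056). Those of Adcy2 were lost without WT 1 (0.20 in Ocn+/- and 0.11 in Ocn-/-) or WT 2 (0.17 and 0.14), and in Ocn+/- also without Ocn+/- 1 (0.10) or Ocn+/- 3 (0.066). That of Adcy7 was lost without WT 1 (0.13), WT 2 (0.31), Ocn-/- 1 (0.080) or Ocn-/- 3 (0.058). Over all genes 1.24% were called higher and 1.71% lower in the interaction with organ. It was called for 3 of 18 genes of this list, all lower: Adcy2 (-0.66), Prkar2b (-0.67) and Adcy1 (-0.70). It was lost for Adcy2 without testes WT 1 (0.080) or WT 2 (0.053), for Prkar2b without testes WT 1 (0.090), and for Adcy1 when any 1 of 12 libraries was left out, of which testes WT 2 gave the highest adjusted p (0.45, at -0.41), and with library size alone (0.093).

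Of 6 tested genes of the Gpr37 partner list, 1 was called lower in Ocn+/- testes, and 1 higher and 1 lower in Ocn-/- testes. The higher gene was Gpr37 itself, and Psap, Gnai1, Gnai2 and Gnai3 were not called in testes of either mutant. The lower gene in both mutants was Gnao1, among the inhibitory G proteins that Gpr37 can use. It was at 21.5 and 19.8 CPM in WT, 13.8, 12.1 and 11.96 in Ocn+/- and 11.1, 9.30 and 8.85 in Ocn-/-. The log2 difference was -0.71 ± 0.20 (SE) in Ocn+/-, with an adjusted p of 0.043, and -1.08 ± 0.21 in Ocn-/-, with an adjusted p of 0.0067. The Ocn-/- call was lost without WT 1 (0.081) or WT 2 (0.095), and the Ocn+/- call when any 1 of 6 libraries was left out, with adjusted p up to 0.27 without WT 1, or with library size alone (0.067). The interaction with organ was -0.82 with an adjusted p of 0.0016, and held without each library. In the list of Rbbp4 complexes, Chaf1a, a chromatin assembly factor subunit that binds Rbbp4, rose in both mutant testes, by 0.79 ± 0.17 in Ocn+/- and 0.61 ± 0.17 in Ocn-/-. In Ocn+/- testes Rbbp7, the close relative of Rbbp4, fell by 0.44 ± 0.13 and the Polycomb subunit Suz12 fell by 0.47 ± 0.14. Each of these 4 calls was lost without WT 1 or WT 2, with adjusted p of 0.11 to 0.31, and without other single libraries. With library size alone those of Rbbp7 (0.061) and Suz12 (0.063) were lost. None of the 15 was called in forebrain of either mutant. The Leydig marker sums given above were lower in the mutant than in the WT testes over these same libraries, and their part in the testis differences of the lists was not tested.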

How the data were processed

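Polyadenylated RNA was sequenced on an Illumina HiSeq from NEBNext libraries. Per the labels, the authors trimmed reads with Trim Galore 0.6.6, aligned them with STAR 2.7.8a to GRCm39 and estimated expected counts per gene with RSEM 1.3.3. The gene annotation release and the use of strand are not given in the sources used here. The members and gene lists were chosen with earlier results of these data known.

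The deposited expected counts were rounded to whole numbers and tested in edgeR 4.0.16 (R 4.3.3) by quasi-likelihood, with TMM scaling, a filter on low counts by genotype and Benjamini-Hochberg adjustment over all genes tested, called at 0.05. Each organ was fitted alone for genotypes, and both together for organ differences and interactions. RPKM used TMM over all 17 libraries and the canonical transcript length. Where genes overlap on opposite strands their reads may be shared: 53.2% of the 50-base stretches of Rbbp4, mostly with Sync, 10.6% of Gpr158, 9.68% of Gnb5 and 5.55% of Gprc6a also occur in another gene. The rule named the members, list genes called in a genotype comparison, each list's most abundant gene per organ and the 3 nearest profiles per receptor; other examples were chosen after their values were seen. The code was tested on simulated data. DESeq2 1.42.0, other scalings, no filter, a replicate block and leaving out each library were tried as alternatives.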

Additional observations from a re-analysis of the deposited data

How the results depend on the processing

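Gpr37 in Ocn-/- testes and Gpr37l1 in Ocn-/- forebrain kept their direction under every alternative. The count of members called moved as follows. Without the filter on low counts it was 1 in Ocn+/- testes, 1 in Ocn+/- forebrain, 2 in Ocn-/- forebrain and 1 for the interaction, which was also 1 in DESeq2. Leaving out each library in turn gave 0 to 1 in Ocn+/- testes, 0 to 1 in Ocn-/- testes, 0 to 1 in Ocn+/- forebrain, 0 to 2 in Ocn-/- forebrain and 0 to 1 for the interaction. The share of all genes called moved too, from 0.691% to 12.5% in Ocn+/- testes, 0.498% to 9.57% in Ocn-/- testes, 1.11% to 5.06% in Ocn+/- forebrain, 1.15% to 5.6% in Ocn-/- forebrain and 0.501% to 6.03% for the interaction. In DESeq2 it was, of genes given an adjusted p, 12.9%, 9.57%, 5.82%, 7.41% and 6.63% in that order, and with a replicate block 7.09% in Ocn-/- forebrain. The deviations of same-numbered libraries correlated at r of -0.12 to 0.12 in testes and -0.08 to 0.24 in forebrain. Other pairs ranged from -0.13 to 0.13 and from -0.29 to 0.16. An r over 0.1 was found in 1 of 7 same-numbered pairs in testes and 2 of 9 in forebrain. The highest in forebrain was Ocn-/- 3 with Ocn+/- 3, so shared deviation by number is not excluded there. The numbers were not taken as pairs. With a replicate block the count in Ocn-/- testes was 0 (Gpr37 0.56, adjusted p = 0.069). The block also ended the calls of Gnao1 (0.081) and Rbbp7 (0.057) in Ocn+/- testes, Itpr2 (0.086) and Chaf1a (0.069) in Ocn-/- testes and the interaction of Adcy1 (0.060). The causes were not tested.

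Of 922 alternative values of 58 log2 differences, 41 changed sign, none with a size above 0.20 or an adjusted p below 0.526. With library size alone the values were 0.0433 for Gnb5 and 0.0031 for Gnaq in Ocn-/- testes, 0.0725 for Rbbp4 and 0.0305 for Gnaq in Ocn+/- forebrain, and 0.104 for Rbbp4 and 0.00061 for Gnaq in Ocn-/- forebrain; without the filter Rbbp4 in Ocn-/- forebrain was 0.0134. Leaving out libraries gave, against WT, -0.109 to 0.0440 for Gnb5 and -0.0251 to 0.140 for Rbbp4 in Ocn-/- testes, -0.153 to 0.190 for Itpr1 and -0.0528 to 0.0197 for Rbbp4 in Ocn+/- forebrain, and -0.0356 to 0.0245 for Rbbp4 in Ocn-/- forebrain. Between Ocn-/- and Ocn+/- it gave -0.0134 to 0.125 for Itpr1 and -0.196 to 0.421 for Rgs7 in testes, and -0.0896 to 0.0202 for Gnaq, -0.120 to 0.151 for Gpr158, -0.127 to 0.279 for Gpr37, -0.0252 to 0.0531 for Rbbp4 and -0.0390 to 0.0536 for Rgs7 in forebrain. For the interaction it gave -0.138 to 0.0014 for Gnaq, -0.132 to 0.0444 for Itpr1 and -0.132 to 0.0416 for Rbbp4.

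Library size alone moved the median of all genes to 0.11 in Ocn-/- forebrain and 0.40 between organs. It moved the share of calls that were higher from 47.2% to 68.1% in Ocn+/- testes, 45.1% to 65.2% in Ocn-/- testes, 31.0% to 47.7% in Ocn+/- forebrain, 37.2% to 64.5% in Ocn-/- forebrain and 52.8% to 63.0% between organs. Depth limits Gprc6a in both organs and Gpr158 and Gpr37l1 in testes.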

Other observations

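The genes whose pattern over the 17 libraries was nearest to each receptor, by the root mean square distance of centred log2 CPM among 17800 genes, were listed as a description. The profiles were centred over both organs, so a like difference between organs brings genes near. Likeness within an organ was not tested. Nearest to Gpr158 were Gng4 (0.23), a G protein gamma subunit, Slc6a17 (0.27), a vesicular amino acid transporter of neurons, and Pou3f4 (0.29), a transcription factor. Nearest to Gpr37 were Brpf3 (0.18), Ptch1 (0.20), the Hedgehog receptor, and Mcm5 (0.21), a replication helicase subunit. Nearest to Gpr37l1 were A730060N03Rik (0.37), Atp6ap1l (0.50) and Gm42741 (0.51), all of which had almost no testis counts. Gprc6a was below the 1 CPM needed for such a comparison.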
